A study of Mus musculus with 33 samples.

Results

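Transcripts of 10 genes that encode histone-modifying enzymes or their partners were followed in single mouse oocytes: Kdm1b, Kdm1a, Kdm5b, Kmt2b, Cxxc1, Setd2, Kdm2b, Setdb1, Ehmt2 and Trim28. They were chosen by name, as proteins linked to the DNA methylation pattern of the oocyte, and are 10 of the 35321 genes of the count table. The libraries hold the polyadenylated RNA of 33 germinal vesicle (GV) oocytes, each separated from the DNA of the same cell and amplified with Smart-seq2. The females were 3 weeks old, on a C57BL6/Babr background, and received no hormones, and their ovaries were digested with collagenase. Nlrp5 encodes a protein of the subcortical maternal complex of the oocyte. The oocytes were Nlrp5 +/+ (n = 10), Nlrp5 +/- (n = 16) or Nlrp5 -/- (n = 7), where the mutant allele is a small CRISPR/Cas9 deletion from 1 mutant line. Mutant and heterozygous females were littermates and most wild-type females came from the founding colony, so in comparisons with Nlrp5 +/+ genotype and litter or colony cannot be told apart. Within a genotype the oocytes were split into an earlier non-surrounded nucleolus (NSN) and a later surrounded nucleolus (SN) stage, which gave 4 NSN and 6 SN oocytes for Nlrp5 +/+, 9 and 7 for Nlrp5 +/-, and 4 and 2 for Nlrp5 -/-. The study set the stage of 32 oocytes from marker genes in these same libraries, and 1 Nlrp5 -/- oocyte has no stage. These numbers were read from the staging heatmap of the study. They differ from its written numbers, since a legend of its supplement gives 4 NSN and 6 SN oocytes for Nlrp5 +/-. Its text gives 2 to 6 samples per stage and genotype.

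An oocyte gains its DNA methylation while it grows, through DNMT3A and its cofactor DNMT3L. DNMT3L binds histone H3 tails that are unmethylated at lysine 4 (H3K4), and DNMT3A is drawn to methylated H3K36, so enzymes that remove H3K4 methylation or add H3K36 methylation influence where methylation is laid down. Methylation of H3K9, with the corepressor TRIM28, silences repeats and protects imprinted regions. In the passage from NSN to SN the chromatin condenses around the nucleolus and transcription stops.

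Every value given as a normalized count is the number of reads on a gene, divided by a size factor for the library. These are relative levels within the RNA of 1 oocyte, and the amount of RNA per oocyte was not measured. No label names the mouse of an oocyte, so each genotype and stage counts as 1 sample and no test was possible. Many differences of the 10 genes are given beside the standard deviation (SD) between oocytes, and those of other genes are given without it. A gene was counted as changed past 2-fold when the means of 2 groups differed by at least 1 on the log2 scale and its mean over the oocytes compared was at least 10 normalized counts. The share of all genes that met the same rule is given with each count from all staged oocytes, and with part of the counts under other settings.

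The libraries held 4223595 to 15573360 counts on genes, with a median of 7724335. Nlrp5 itself had 10114 to 29131 normalized counts in Nlrp5 +/+ oocytes, 5062 to 13472 in Nlrp5 +/- oocytes and 1362 to 2556 in Nlrp5 -/- oocytes, so the first 2 ranges overlapped and the Nlrp5 -/- range lay below both. All 8 oocyte markers (Zp1, Zp2, Zp3, Gdf9, Bmp15, Figla, Nobox, Ooep) had at least 208 normalized counts in every oocyte. The summed CPM (counts scaled to the library total) of 13 granulosa cell markers ran from 76.4 to 124 in Nlrp5 +/+ oocytes and from 81.0 to 143 in Nlrp5 +/- oocytes. They reached 188, 251 and 424 in 3 staged Nlrp5 -/- oocytes (oocytes 7, 13 and 14) and 1072.5 in the unstaged oocyte 15. Amh was at 0 in 9 and Foxl2 in 8 of the 10 Nlrp5 +/+ oocytes, while Cyp19a1, Nr5a2 and Kitl were detected in each of them. Many log2 changes of the 10 genes in Nlrp5 -/- are therefore also given without oocytes 7, 13 and 14, which leaves 2 NSN oocytes and 1 SN oocyte. Others moved too. Against Nlrp5 +/+ at NSN, Trim28 went from -0.14 to -0.52 and Kdm5b from 0.46 to 0.12. At SN, Kdm5b went from 0.26 to -0.26 and Cxxc1 from -0.03 to -0.42. Among the staged oocytes, NSN oocyte 61 of Nlrp5 +/- stood apart in the summed CPM of 8 theca, stroma and blood markers (237, against 50.5 to 105 in the others) and in genes detected (14838, against 16324 to 19395). It held the highest Ehmt2 and Trim28 and the lowest Setd2 of its group, and leaving it out moved the log2 changes of the 10 genes by at most 0.15. The labels name the same sequencing lane for all 33 oocytes and no date of collection or library preparation.

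Per kilobase of exon, the 10 genes covered 2 orders of magnitude, and Kdm1b had the highest mean over the groups. The mean of the 6 group means was 411 normalized counts per kb for Kdm1b, 249 for Setdb1, 180 for Trim28 and 168 for Kdm2b. The order depended on the stage, since in Nlrp5 +/+ SN oocytes Setdb1 (263) was above Kdm1b (241). Setd2 had 65.1, Cxxc1 47.3, Kdm1a 38.2 and Kmt2b 21.8 normalized counts per kb. Kdm5b and Ehmt2 were lowest, at 4.81 and 4.005 normalized counts per kb. Neighbours in this order were often not separated: Kdm1b was above Setdb1 in 26, Setdb1 above Trim28 in 25, Trim28 above Kdm2b in 18 and Kdm5b above Ehmt2 in 21 of the 32 oocytes. Kdm2b was above Setd2 and Kmt2b above Kdm5b in 32 of 32 oocytes each, though Kdm2b and Setd2 were nearly equal in oocyte 55, and Cxxc1 stood above Kdm1a in 23 and Kdm1a above Kmt2b in 29. Exon length was the union of the exons annotated for each gene, so a gene with long rare exons is placed too low.

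**Figure D1:**
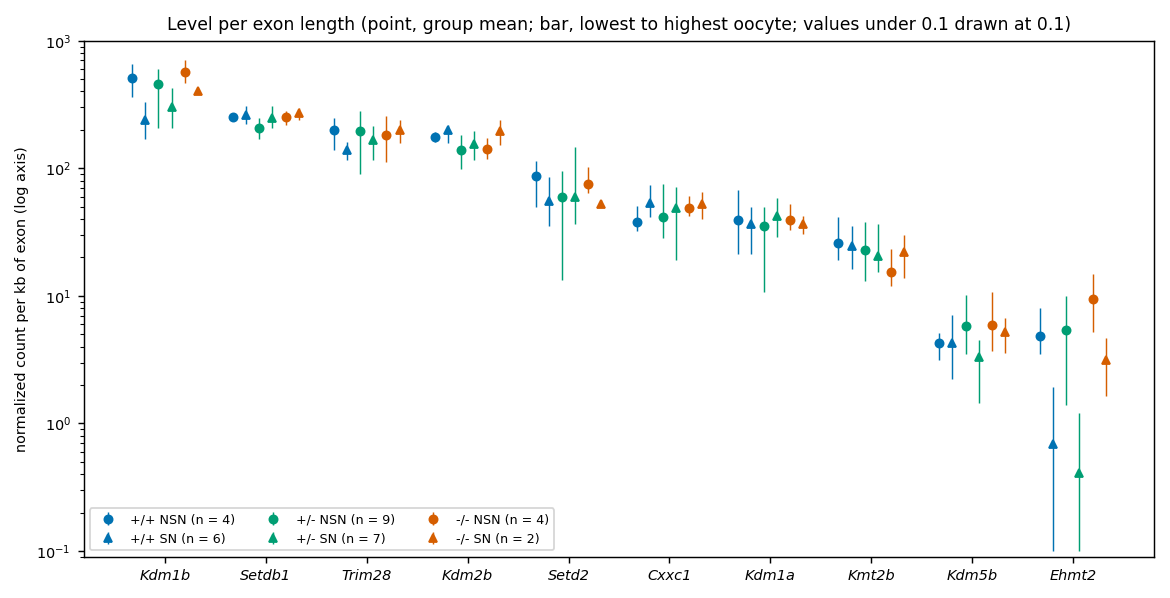
Group means of the 10 genes over the 32 staged oocytes, as normalized counts per kb of exon on a log axis. Bars run from the lowest to the highest oocyte, with the lowest values raised to a floor near the lower edge. Genes are ordered by the mean of the 6 group means. Kdm1b, Setdb1, Trim28 and Kdm2b lie at 89.6 per kb or more in every oocyte, and Kdm5b and Ehmt2 at 14.8 per kb or less.

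Kdm1b encodes LSD2, a demethylase of mono- and dimethylated H3K4 that is required for methylation of many maternal imprints. The gene (ENSMUSG00000038080) spans chromosome 13, 47043499 to 47085279, plus strand in GRCm38, and overlaps Tpmt and Dek on the other strand. In Nlrp5 +/+ oocytes Kdm1b had 3238, 4451, 4726 and 5883 normalized counts at NSN. At SN the 6 oocytes ran from 1523 to 3011, with a median of 2044. Every SN oocyte was below every NSN oocyte, and the mean went from 4574 ± 1086 (SD, n = 4) to 2174 ± 554 (SD, n = 6), which is 47.5% of the NSN level. The log2 change was -1.07, or 2.99 times the SD between oocytes, and placed Kdm1b at percentile 7.82 of the 13576 genes compared. Leaving out 1 oocyte at a time gave -1.21 to -0.93, and the change was under 2-fold without NSN oocyte 79 or SN oocyte 80.

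Kdm1b was lower at SN in both mutant genotypes too, by less. In Nlrp5 +/- oocytes it ran from 1869 to 5377 at NSN (median 4144) and from 1859 to 3810 at SN (median 2563), and the ranges overlapped. The means were 4096 ± 1096 (SD, n = 9) and 2708 ± 757 (SD, n = 7), a log2 change of -0.60. In Nlrp5 -/- oocytes the NSN values were 4169, 4195, 5607 and 6379 and the SN values 3474 and 3783. Both SN oocytes lay below the 4 NSN oocytes, the means were 5087 ± 1092 (SD, n = 4) and 3629 (n = 2), and the log2 change was -0.49, or -0.37 without oocytes 7, 13 and 14. Whether the stage changes of the 3 genotypes differ was not tested.

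At SN, Kdm1b was the one gene of the 10 whose Nlrp5 -/- oocytes lay above all Nlrp5 +/+ oocytes, with no overlap. The 2 Nlrp5 -/- values of 3474 and 3783 compare with a highest Nlrp5 +/+ value of 3011, and with a highest Nlrp5 +/- value of 3810. The log2 difference of Nlrp5 -/- from Nlrp5 +/+ was 0.74, or 2.23 times the SD between oocytes, and 0.80 with SN oocyte 31 alone. Of the 13351 genes compared, 7.24% had both Nlrp5 -/- oocytes above the 6 Nlrp5 +/+ oocytes, so 1 of 9 genes near that background is no result about the set. Nlrp5 +/- oocytes at SN were 0.32 above Nlrp5 +/+ oocytes on the log2 scale and overlapped them. At NSN the differences from Nlrp5 +/+ were 0.15 in Nlrp5 -/- and -0.16 in Nlrp5 +/-, both under the SD between oocytes, and the former was 0.10 without oocytes 13 and 14. Both sets of differences share the same Nlrp5 +/+ oocytes. Against Nlrp5 +/-, Nlrp5 -/- oocytes differed by 0.31 at NSN and 0.42 at SN, with overlapping ranges at both stages (0.26 and 0.48 without oocytes 7, 13 and 14).

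The place of an oocyte on the study's stage markers moved with Kdm1b. For a staging score, the mean log2 level of 59 SN markers was subtracted from that of 104 NSN markers, all from the study's list without Ehmt2. It ran from -3.51 to -1.97 in the 17 NSN oocytes. In the SN oocytes it was -5.24 to -4.04 for Nlrp5 +/+, -5.08 to -3.56 for Nlrp5 +/- and -4.18 to -3.83 for Nlrp5 -/-, so the 2 Nlrp5 -/- SN oocytes sat towards the NSN end of the SN range, within the values of Nlrp5 +/-. Kdm1b is not on the list, and over the 15 SN oocytes its log2 level had a Pearson correlation of 0.74 with the score. Over the 17 NSN oocytes the correlation was -0.01. These points share libraries and scaling, and within SN the correlation of Kdm1b with the log2 total count was -0.41. The part of the staging score in the Kdm1b difference between genotypes at SN was not tested.

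**Figure D2:**
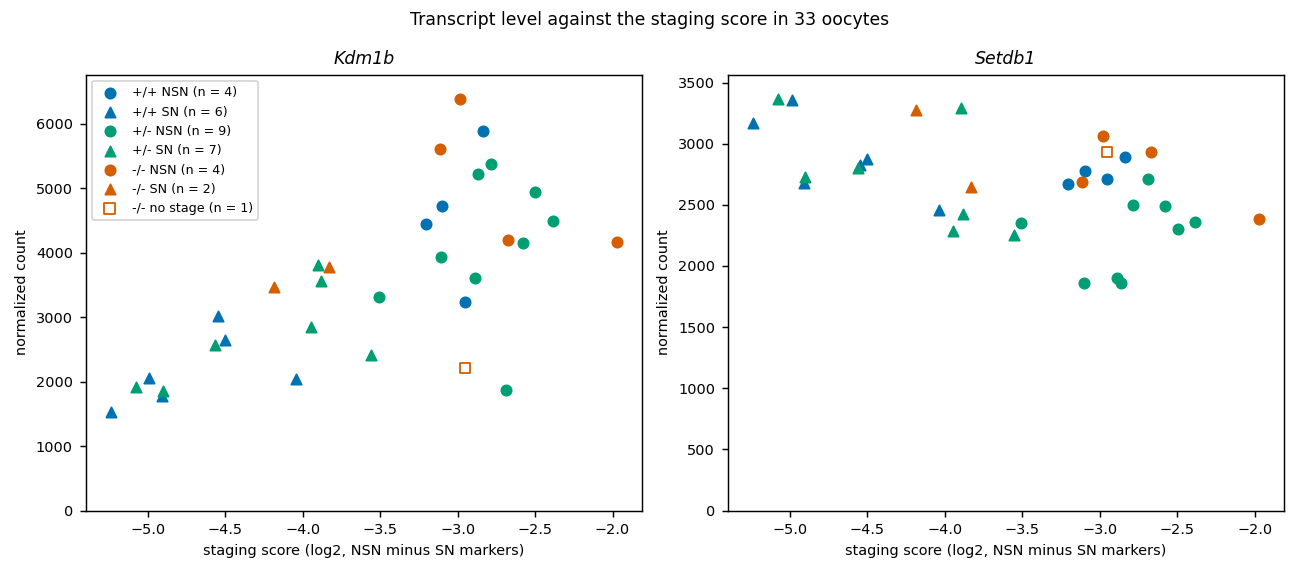
Normalized count of Kdm1b and Setdb1 against the staging score without Ehmt2, for 33 oocytes coloured by genotype. Separate symbols mark NSN, SN and the unstaged oocyte. Within SN, Kdm1b is higher in oocytes with a higher score (r = 0.74 for log2 levels, n = 15) and Setdb1 lower (r = -0.60), while within NSN neither follows it.

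Kdm1a encodes LSD1, the demethylase related to LSD2, which acts on the same H3K4 states. The gene (ENSMUSG00000036940) spans chromosome 4, 136550540 to 136602723, minus strand, and overlaps Luzp1 on the other strand. It had 120, 190, 194 and 382 normalized counts in the NSN oocytes of Nlrp5 +/+ and 120 to 277 in the SN oocytes, with a median of 206. The SN values lay inside the NSN range. The 6 group means of Kdm1a ran from 197 to 236, and its stage changes were -0.11, 0.26 and -0.11 on the log2 scale in Nlrp5 +/+, +/- and -/- (the last -0.25 without oocytes 7, 13 and 14), each under the SD between oocytes. Between genotypes its log2 differences ran from -0.21 to 0.20 over both stages, again under the SD, and the lowest, of Nlrp5 -/- from Nlrp5 +/- at SN, was -0.46 without oocyte 7. The ratio of Kdm1b to Kdm1a per kb was 12.8 at NSN and 6.59 at SN in Nlrp5 +/+, and 12.9 and 7.13 in Nlrp5 +/-. In Nlrp5 -/- it was 14.3 and 11.04. Single oocytes ran from 3.41 to 37.1, and the stages overlapped in each genotype.

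Kdm5b, a demethylase of di- and trimethylated H3K4, was low but detected in every oocyte, with a median of 80 raw counts. The gene (ENSMUSG00000042207) spans chromosome 1, 134560171 to 134635285, plus strand. In Nlrp5 +/+ oocytes it had 52.4, 72.8, 75.6 and 84.9 normalized counts at NSN and 37.1 to 117 at SN, with a median of 63.8, and the stages overlapped. In Nlrp5 +/- oocytes the mean was 96.7 ± 33.9 (SD, n = 9) at NSN and 54.9 ± 20.7 (SD, n = 7) at SN. That log2 change of -0.81 exceeded the SD between oocytes of 0.54, with overlapping ranges, while the changes were 0.00 in Nlrp5 +/+ and -0.20 in Nlrp5 -/- (-0.38 without oocytes 7, 13 and 14). Over the 17 NSN oocytes Kdm5b had a correlation of 0.62 with the staging score, and of -0.20 over the 15 SN oocytes.

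Kmt2b encodes MLL2, the methyltransferase that lays down much of the H3K4 trimethylation of the oocyte outside active promoters. The gene (ENSMUSG00000006307) spans chromosome 7, 30568858 to 30588726, minus strand. In Nlrp5 +/+ oocytes it had 188, 189, 237 and 412 normalized counts at NSN and 159 to 347 at SN, with a median of 247. The stages overlapped, with a log2 change of -0.09. In Nlrp5 -/- oocytes Kmt2b had 117, 124, 138 and 228 normalized counts at NSN, so 3 of the 4 were below all 4 Nlrp5 +/+ oocytes. The log2 difference from Nlrp5 +/+ at NSN was -0.75, or 1.55 times the SD between oocytes, and from Nlrp5 +/- it was -0.57. Without oocytes 13 and 14 they were -1.003, so that Kmt2b passed 2-fold, and -0.82, and without oocyte 14 alone the former was -1.02. Of the 2 SN oocytes of Nlrp5 -/-, at 136 and 295, 1 was below the Nlrp5 +/+ SN range and 1 inside it. The log2 difference from Nlrp5 +/+ at SN was -0.16, or -0.82 without oocyte 7. The stage change of 0.51 in Nlrp5 -/- was 0.09 without the oocytes of high granulosa marker signal and -0.15 without oocyte 7 alone.

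Cxxc1 encodes CFP1, the CpG-binding subunit of the SETD1 complexes that methylate H3K4. The gene (ENSMUSG00000024560) lies on chromosome 18. It had 162, 171, 173 and 253 normalized counts in the NSN oocytes of Nlrp5 +/+ and 209 to 366 in the SN oocytes, with a median of 240. The SN oocytes were mostly higher, with 1 NSN oocyte inside their range, and the log2 change was 0.50, or 1.60 times the SD between oocytes. The change was 0.24 in Nlrp5 +/- and 0.10 in Nlrp5 -/-, both under the SD, and the latter was -0.37 without oocytes 7, 13 and 14.

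Setd2 encodes the enzyme that trimethylates H3K36 along transcribed genes. The gene (ENSMUSG00000044791) spans chromosome 9, 110532597 to 110618633, plus strand, and overlaps Gm42763 on the same strand, so reads may be shared. In Nlrp5 +/+ oocytes it had 550, 975, 1064 and 1261 normalized counts at NSN and 392 to 937 at SN, with a median of 583. Of the NSN oocytes 3 were above every SN oocyte and 1 was inside their range. The log2 change was -0.65 in Nlrp5 +/+, 1.45 times the SD between oocytes, and -0.51 in Nlrp5 -/-, where the SN values of 546 and 621 lay below NSN values of 700, 741, 751 and 1137 (-0.41 without oocytes 7, 13 and 14). In Nlrp5 +/- oocytes the change was -0.01, with NSN from 148 to 1057 (median 682) and SN from 405 to 1630 (median 460). Its spread at SN was wide, with a coefficient of variation of 66.9%, and the value of 1630 came from oocyte 55. The change near 0 rested on that oocyte, since it was -0.42 without it, -0.57 between medians and -0.62 with oocyte 55 counted as NSN.

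Kdm2b encodes a CpG-binding demethylase of H3K36 and the recruiting subunit of a variant Polycomb complex. The gene (ENSMUSG00000029475) spans chromosome 5, 122870665 to 122989823, minus strand, and overlaps Rnf34 and A930024E05Rik on the other strand and Gm43411 and Gm44574 on the same strand. Among the 10 genes it was one of the least variable in Nlrp5 +/+, with 1742, 1875, 1921 and 2092 normalized counts at NSN and 1724 to 2368 at SN (median 2279). The log2 stage change was 0.19 in Nlrp5 +/+, 0.17 in Nlrp5 +/- and 0.47 in Nlrp5 -/-, and the last rested on SN values of 1647 and 2597 and was 0.23 without oocytes 7, 13 and 14. At NSN the mean was 1908 ± 144 (SD, n = 4) in Nlrp5 +/+, 1520 ± 371 (SD, n = 9) in Nlrp5 +/- and 1534 ± 254 (SD, n = 4) in Nlrp5 -/-. Nlrp5 -/- oocytes had 1285, 1442, 1526 and 1885, so 3 of 4 were below all Nlrp5 +/+ oocytes, and the log2 difference of -0.31 (-0.44 without oocytes 13 and 14) was 1.74 times the SD between oocytes. At SN, Nlrp5 +/- oocytes were lower than Nlrp5 +/+ oocytes by a like amount (-0.35, 1.60 times the SD), while Nlrp5 -/- oocytes differed by -0.04, or by -0.40 without oocyte 7.

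Setdb1 encodes an enzyme that trimethylates H3K9 and works with TRIM28. The gene (ENSMUSG00000015697) spans chromosome 3, 95323525 to 95357202, minus strand, and overlaps Cers2 and Gm37500 on the other strand. It was the most even of the 10 genes in the NSN oocytes of Nlrp5 +/+, at 2668, 2714, 2773 and 2892 normalized counts. The SN oocytes ran from 2455 to 3354 with a median of 2849, on both sides of the NSN values. The log2 stage change was 0.07 in Nlrp5 +/+, 0.28 in Nlrp5 +/- and 0.10 in Nlrp5 -/-, and the first turned to -0.04 when libraries were scaled by total count and the last to -0.09 without oocytes 7, 13 and 14. At NSN, 8 of the 9 Nlrp5 +/- oocytes were below all 4 Nlrp5 +/+ oocytes. Their mean was 2259 ± 313 (SD, n = 9) against 2762 ± 96.9 (SD, n = 4), a log2 difference of -0.29 that was 1.64 times the SD between oocytes. The 4 Nlrp5 -/- oocytes, at 2383, 2687, 2929 and 3064, straddled the Nlrp5 +/+ values, with a difference of 0.00 (0.02 without oocytes 13 and 14).

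Trim28 encodes KAP1, the corepressor that KRAB zinc finger proteins bring to imprinted regions and repeats. The gene (ENSMUSG00000005566) spans chromosome 7, 12999114 to 13031035, plus strand, and overlaps Zbtb45 on the other strand. In Nlrp5 +/+ oocytes it had 601, 800, 980 and 1068 normalized counts at NSN and 497 to 699 at SN, with a median of 583. Of the NSN oocytes 3 lay above every SN oocyte, and the log2 change of -0.53 was 1.97 times the SD between oocytes. The change was -0.23 in Nlrp5 +/- and 0.13 in Nlrp5 -/- (0.19 without oocytes 7, 13 and 14). At SN the 2 Nlrp5 -/- oocytes had 687 and 1027, a log2 difference of 0.52 from Nlrp5 +/+ that was 2.18 times the SD. The difference was 0.21 without oocyte 7, and the lower of the 2 values lay inside the Nlrp5 +/+ range.

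Ehmt2 encodes G9a, a methyltransferase that places mono- and dimethylation on H3K9. The gene (ENSMUSG00000013787) spans chromosome 17, 34898469 to 34914052, plus strand. Its stage change was the largest of the 10 genes in each genotype with all staged oocytes, though in Nlrp5 -/- not without oocytes 7, 13 and 14, where Setd2 (-0.41) and Kdm5b (-0.38) changed as much or more. It is an NSN marker on the study's staging list, so this change was used to set the stage and is given as a description. In Nlrp5 +/+ oocytes it had 20.2, 20.7, 25.2 and 46.1 normalized counts at NSN and 0 to 11.04 at SN, with a median of 3.44. No SN oocyte reached an NSN oocyte. These values rest on 136 raw counts over the 4 NSN oocytes (95% Poisson interval 114 to 161) and 32 over the 6 SN oocytes (21.9 to 45.2), and the intervals cover counting error alone. In 3 oocytes of the series the raw count was 0, which allows up to 3 counts. The means were 28.0 ± 12.2 (SD, n = 4) and 3.96 ± 3.91 (SD, n = 6), and the log2 change was -2.55.

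In Nlrp5 +/- oocytes Ehmt2 ran from 7.98 to 56.9 normalized counts at NSN (median 36.4) and from 0 to 6.93 at SN (median 1.08), again with no overlap, and the log2 change was -3.27. With oocyte 61, which supplied the value of 56.9, left out it was -3.12, and with it counted as SN -1.52. In Nlrp5 -/- oocytes Ehmt2 had 30.0, 40.2, 62.8 and 85.2 at NSN and 9.44 and 26.8 at SN. The SN oocytes were again lower, with a log2 change of -1.54. The 2 NSN oocytes at 62.8 and 85.2 and the SN oocyte at 9.44 are those with high granulosa marker sums. Without them the change was -0.38, between the NSN values of 30.0 and 40.2 and the SN value of 26.8. At NSN the log2 difference of Nlrp5 -/- from Nlrp5 +/+ was 0.94, just under 2-fold, with 2 of 4 values inside the Nlrp5 +/+ range and 2 above it, and it was 0.31 without oocytes 13 and 14. The part of other cell types in the Nlrp5 -/- values was not tested. At SN the mean of Ehmt2 over the oocytes compared was under 10, so no genotype difference was counted there.

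**Figure D3:**
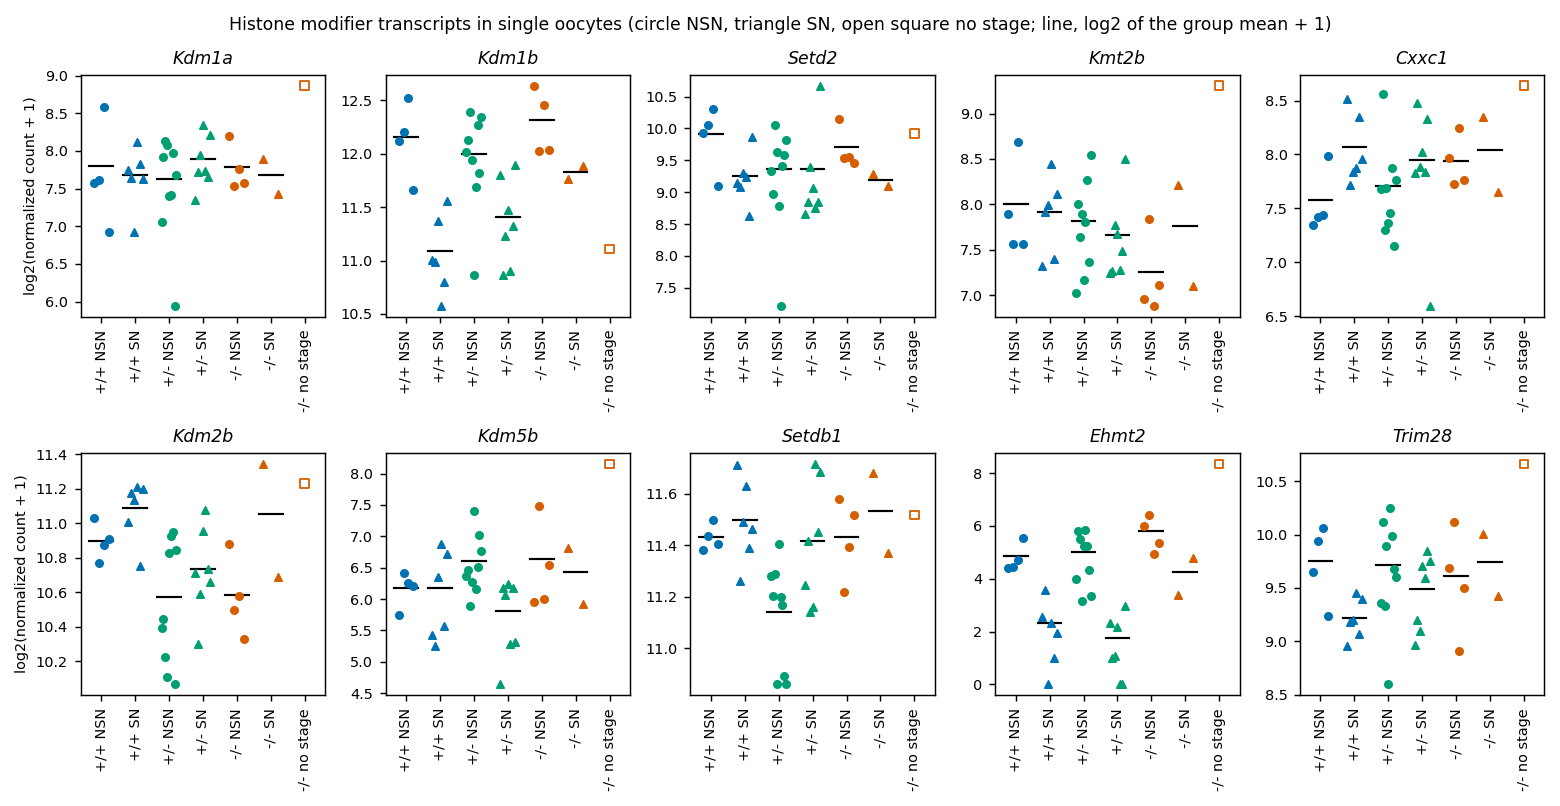
Normalized counts of each of the 10 genes in single oocytes by genotype and stage, on a log2 axis, with horizontal bars at group means. The unstaged oocyte is an open square. Kdm1b and Ehmt2 separate NSN from SN in Nlrp5 +/+, while the other 8 genes overlap between stages.

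Counted together, 2 of the 10 genes changed past 2-fold between NSN and SN in Nlrp5 +/+ oocytes, namely Kdm1b and Ehmt2, beside 12.8% of all genes (8.82% lower, 3.97% higher). With Ehmt2 set aside, since it helped to set the stage and passed the filter of 10 through its NSN oocytes alone in Nlrp5 +/+ and Nlrp5 +/-, Kdm1b remains. Their NSN and SN oocytes did not overlap, which held for 9.8% of all genes. In Nlrp5 +/- oocytes 1 of the 10 (Ehmt2) changed past 2-fold beside 9.23% of all genes, and was also the one without overlap, beside 1.34%. In Nlrp5 -/- oocytes Ehmt2 changed past 2-fold beside 14.8% of all genes, and Kdm1b, Setd2 and Ehmt2 did not overlap beside 20.2%. The median log2 change of the 10 genes was -0.10 in Nlrp5 +/+, -0.08 in Nlrp5 +/- and -0.01 in Nlrp5 -/-, and that of all genes was 0.03, -0.05 and -0.05. Leaving out 1 oocyte moved the medians of the 10 genes to between -0.26 and 0.06, -0.32 and 0.01, and -0.32 and 0.21, so their sign was not stable in any genotype. With 10 genes, 1 of them chosen as a stage marker, these counts are descriptions and no result about the set.

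**Figure D4:**
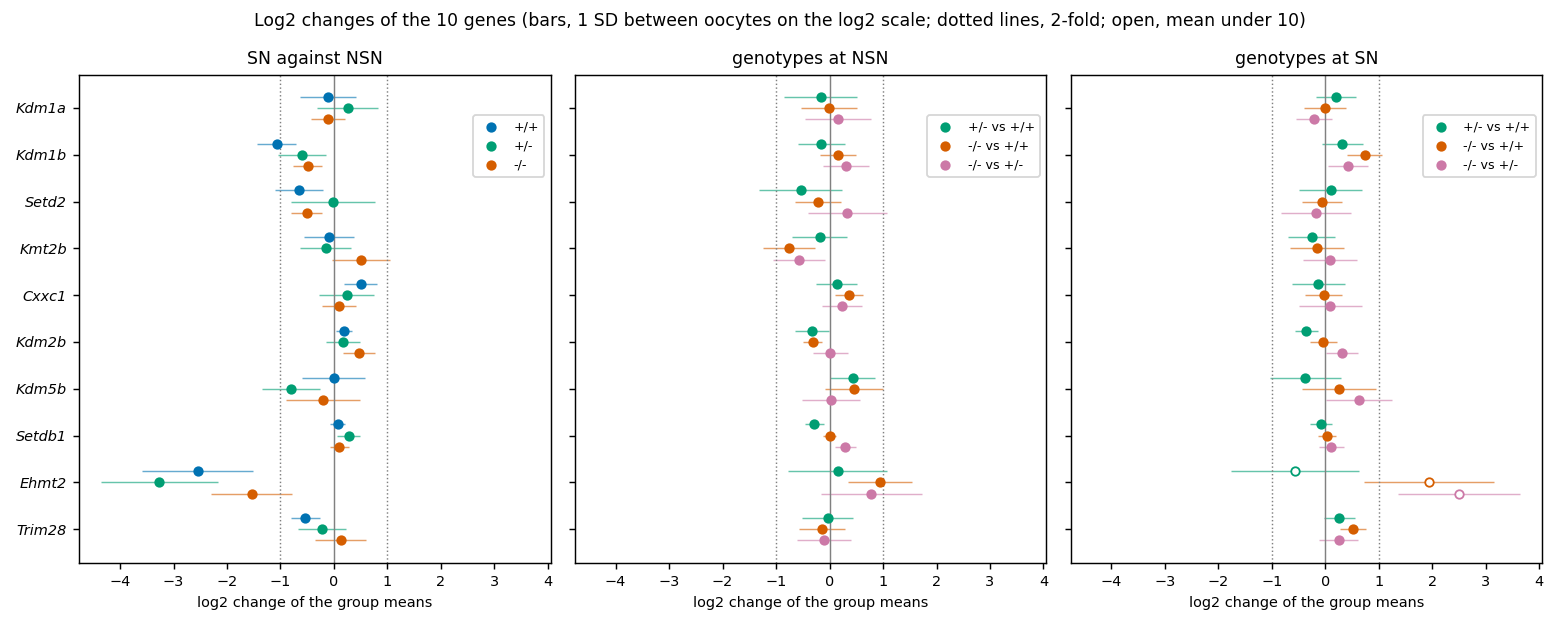
Log2 changes of the 10 genes for SN against NSN in each genotype and for the genotype comparisons at each stage, with bars of 1 SD between oocytes and dotted lines at 2-fold. Kdm1b in Nlrp5 +/+ and Ehmt2 in each genotype lie past 2-fold between stages, and open symbols mark Ehmt2 at SN, where its mean was under 10.

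None of the 10 genes passed 2-fold between genotypes at either stage among those with a mean of at least 10. At NSN this was 0 of 10 for Nlrp5 -/- against Nlrp5 +/+ beside 8.14% of all genes, 0 of 10 for Nlrp5 +/- against Nlrp5 +/+ beside 3.12%, and 0 of 10 for Nlrp5 -/- against Nlrp5 +/- beside 6.5%. Without oocytes 13 and 14 the first of these was 1 of 10 (Kmt2b), beside 8.95%, and other settings that moved the counts are given further below. At SN, with 9 genes in each comparison, the shares of all genes were 10.1%, 1.95% and 8.91%. Between Nlrp5 -/- and Nlrp5 +/+ the median absolute log2 difference was 0.26 over the 10 genes at NSN and 0.07 over the 9 genes at SN, and of all genes 0.30 and 0.35. Without oocytes 7, 13 and 14 the medians of these genes were 0.36 at NSN and 0.26 at SN, and those of all genes 0.34 and 0.34. The 3 genotype comparisons at a stage share oocytes, and those with Nlrp5 -/- at SN rest on 2 mutant oocytes.

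Beside the 10 genes, 48 other genes of the same pathways were counted in 6 lists. Past 2-fold between NSN and SN were 5 of 46 in Nlrp5 +/+ (12.8% of all genes), 2 of 46 in Nlrp5 +/- (9.23%) and 6 of 47 in Nlrp5 -/- (14.8%). Each of these was lower at SN, where of all genes 8.82%, 7.21% and 11.4% were lower and 3.97%, 2.02% and 3.32% higher, and the counts are not a result about the lists. Kdm4c, counted in each genotype, and Kmt2a, counted in Nlrp5 -/-, had SN means under 10 and passed the filter through their NSN oocytes alone, so their counts carry no weight. Without oocytes 7, 13 and 14 the Nlrp5 -/- count was 3 of 46, beside 15% of all genes. The median log2 change of the lists together was -0.16, 0.08 and -0.04. In Nlrp5 +/+ the genes past 2-fold were Setd1b, Kdm4c, Kdm5a, Ash1l and Kdm3b, and in Nlrp5 +/- Kdm4c and Kdm5a. Kdm5a, an H3K4 demethylase, had means of 147 at NSN and 20.8 at SN in Nlrp5 +/+ (log2 change -2.76). Its means were 95.1 and 44.5 in Nlrp5 +/- (-1.08) and 136 and 11.4 in Nlrp5 -/- (-3.46, or -3.57 without oocytes 7, 13 and 14). Kdm3b, an H3K9 demethylase, had a mean of 185 normalized counts at NSN (126 to 212) and 63.5 at SN (52.2 to 74.0), with no overlap and a log2 change of -1.53. Ash1l, an H3K36 methyltransferase, had means of 290 and 138 in Nlrp5 +/+ and 263 and 123 in Nlrp5 -/-, with log2 changes of -1.06 and -1.09, the latter -0.33 without oocytes 7, 13 and 14. Setd1b, a catalytic subunit of the SETD1 complexes, had means of 169 and 82.8 in Nlrp5 +/+, with overlapping stages and a log2 change of -1.02. It changed by -0.14 in Nlrp5 +/- and 0.18 in Nlrp5 -/-, and Kdm3b by -0.58 and -0.46. Zfp445, a KRAB zinc finger that binds imprinted regions, passed 2-fold in Nlrp5 -/- (362 and 165, log2 change -1.13), and changed by -0.63 without oocytes 7, 13 and 14.

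By list, the median stage changes in Nlrp5 +/+, +/- and -/- were 0.05, 0.16 and 0.16 for subunits of the H3K4 methyltransferase complexes and -0.58, -0.10 and -0.44 for H3K4 and H3K36 demethylases. Setd1a, on the first of these lists, is also on the staging list. The demethylase list holds Glyr1, the partner of LSD2, and Rcor1, the partner of LSD1. Glyr1 changed by 0.43, 0.20 and 0.30 on the log2 scale, opposite in sign to Kdm1b, and Rcor1 by -0.14, 0.30 and 0.09. The H3K36 methyltransferases had medians of -0.38, 0.16 and -0.31, and the H3K9 methylation list, with its KRAB partners, of -0.18, 0.09 and -0.36. The subunits of the KDM2B Polycomb complex had medians of 0.04, -0.02 and 0.11. The DNA methylation list had medians of -0.16, 0.12 and 0.14, and within it Dnmt3l changed by 0.76, 0.30 and 0.37 and Dnmt3a by -0.20, 0.03 and -0.01.

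**Figure D5:**
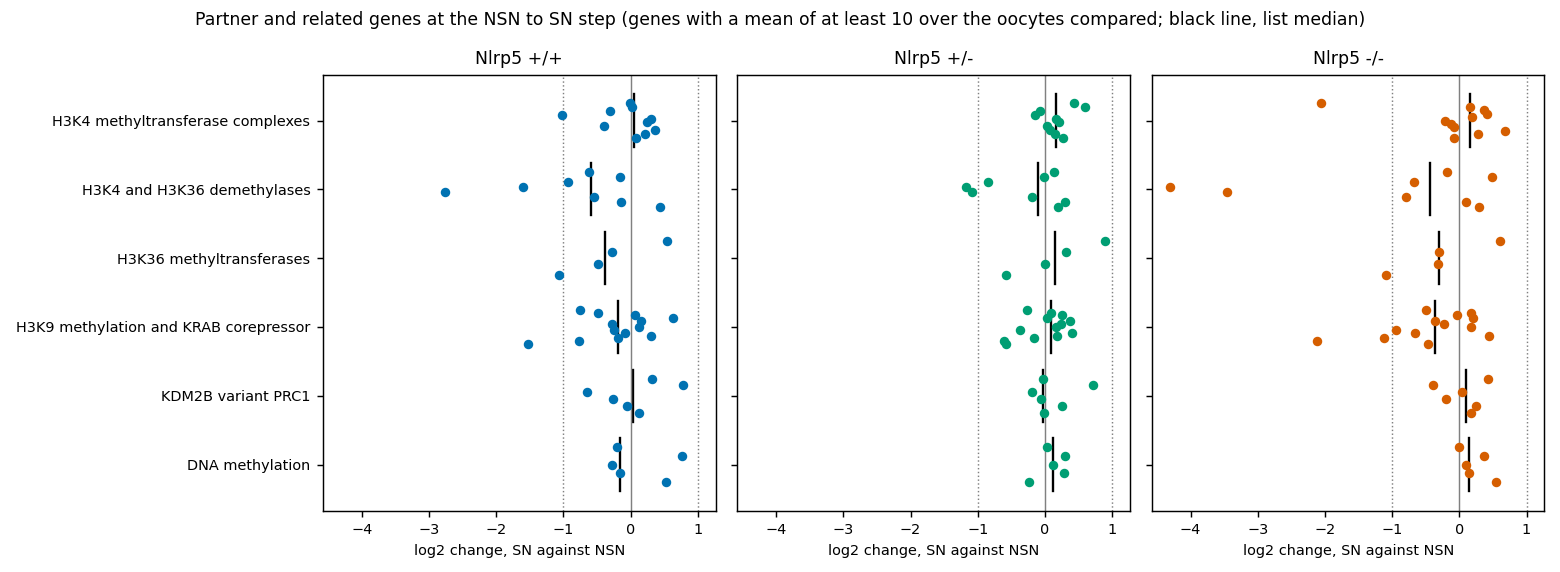
Log2 stage changes of the 48 other pathway genes by list in each genotype, for genes with a mean of at least 10 over the oocytes compared, with black bars at list medians and dotted lines at 2-fold. Each gene past 2-fold lies on the side lower at SN.

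Between genotypes, 2 of 47 pathway genes passed 2-fold at NSN for Nlrp5 -/- against Nlrp5 +/+ (8.14% of all genes) and 0 of 45 at SN (10.1%). The 2 were Bcor (log2 difference 1.31, or 1.14 without oocytes 13 and 14) and Kmt2a. Kmt2a passed the filter through the Nlrp5 -/- oocytes where it was high, and was under it without oocytes 13 and 14, so its count carries no weight. Without oocyte 7 the SN count was 1 of 45, beside 12.2% of all genes, since Kdm5a was at -1.28. For Nlrp5 +/- against Nlrp5 +/+ the counts were 0 of 46 at NSN (3.12%) and 1 of 45 at SN (1.95%), namely Kdm5a, which was higher. For Nlrp5 -/- against Nlrp5 +/- they were 1 of 46 at NSN (6.5%), Bcor, which was higher, and 1 of 45 at SN (8.91%), Kdm5a, which was lower. Without oocytes 13 and 14 the NSN count was 2 of 46, beside 8.63% of all genes, with Dppa3 added at -1.14. None of these shares is a result about the lists.

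Genes with the most similar pattern to Kdm1b and Ehmt2 were sought by correlation of log2 levels over the 32 staged oocytes, among genes with a mean of at least 100. For Kdm1b, out of 8401 genes, these were Taf4b (r = 0.86), Vps54 (r = 0.86) and Map3k2 (r = 0.85), none of them on the staging list. The correlations were 0.74, 0.74 and 0.71 within NSN and 0.76, 0.77 and 0.78 within SN, from the same oocytes that chose these genes. For Ehmt2 the genes were Simc1 (r = 0.88), Eloa (r = 0.86) and 2410002F23Rik (r = 0.85) out of 8402, the first 2 of which are on the staging list. Among the 10 genes, Kdm1b had a correlation of 0.65 with Ehmt2 over both stages, which was -0.05 within NSN and 0.44 within SN. With Setd2 it was 0.53 (0.62 and 0.44) and with Trim28 0.46 (0.37 and 0.35). Kdm2b with Setdb1 gave 0.50 (0.42 and 0.37) and Kmt2b with Trim28 0.48 (0.60 and 0.40). Setd2 with Cxxc1 gave -0.39, which was -0.08 within NSN and -0.70 within SN. The last rested on oocyte 55, without which it was -0.21 (n = 14), and without that oocyte the SN value of Kdm1b with Setd2 was 0.24. The points share libraries and stage, and these values are descriptions.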

How the data were processed

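Libraries were made from single oocytes by G&T-seq, with Smart-seq2 for RNA. The authors deposited, after trimming (Trim Galore) and alignment (HISAT2), the count of reads on each gene without normalization. The methods name GRCm39 for alignment, while the labels and the coordinates of the table are GRCm38, which is used here. Whether counting used strand is not given in the sources used here. Of 35373 entries, 52 repeated entries were left out.

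Genotype was taken from the labels. The labels give no stage, so NSN or SN was read by eye from the stage bar of a heatmap in the supplement of the study, which was drawn from marker genes of the same libraries, and every comparison by stage rests on that reading. Counts were divided by size factors (median of ratios over 33 oocytes), and fold changes were taken between means over oocytes with a pseudocount of 1 and a filter of at least 10. The members and gene lists were chosen with earlier results of these data known. Named were the 10 genes; of the other pathway genes, up to 3 higher and 3 lower per comparison past 2-fold with a mean of at least 100; and the 3 genes most correlated with each member past 2-fold in Nlrp5 +/+. Pathway genes past 2-fold with lower means were named after their values were seen, as were Dppa3, Glyr1, Rcor1, Dnmt3l and Dnmt3a. No 2 libraries differed by as little as sampling noise, the smallest chi-square per gene between 2 oocytes being 10.8. Exon lengths came from the GENCODE annotation of the reference. Alternatives were total-count scaling, TMM factors (edgeR 4.0.16, R 4.3.3), size factors within a comparison, other averages, a pseudocount of 5, filters of 100 and none, other stage labels and leaving out each oocyte, and, chosen after seeing the data, leaving out oocytes of high granulosa marker signal or oocyte 61. The fold changes were tested on simulated data. The software was matplotlib 3.10.9, scipy 1.17.1, pandas 2.3.3 and numpy 2.4.6 in Python 3.11.15.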

Additional observations from a re-analysis of the deposited data

Results flagged for a closer look

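In the unstaged Nlrp5 -/- oocyte 15, which entered no comparison, 6 of the 10 genes were above every staged oocyte of any genotype. The share of all genes that did so is not given, so this count is no result about the 10 genes. Kdm1a had 466 normalized counts in oocyte 15, Cxxc1 398 and Trim28 1619. Kmt2b had 633, Kdm5b 284 and Ehmt2 326 normalized counts, which was 4.18, 2.88 and 5.98 times the mean of the NSN Nlrp5 -/- oocytes. The other 4 genes were within the range of the staged oocytes, with Kdm1b at 2206, Setd2 at 969, Kdm2b at 2400 and Setdb1 at 2930. Granulosa marker signal was 8.65 times that of the highest Nlrp5 +/+ oocyte in the same library, and its part in these values was not tested.

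Of 50 sets of oocytes examined for 1 value far from the others, 5 had one. The sets of different genes share oocytes, so this count is a description and no chance rate is set beside it. Setd2 had 1630 normalized counts and Kmt2b 360 in the same Nlrp5 +/- SN oocyte, number 55. Setd2 had 1137 in NSN oocyte 13 of Nlrp5 -/-, which also has a high granulosa marker sum. Cxxc1 had 253 in NSN oocyte 87 of Nlrp5 +/+ and 377 in NSN oocyte 48 of Nlrp5 +/-.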

How the results depend on the processing

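Of 2010 values of single genes under alternatives, 1971 moved by less than 1 SD between oocytes, and 39 by more. No change past 2-fold as reported turned its sign, while Ehmt2 in Nlrp5 +/- against Nlrp5 +/+ at SN, under the filter at -0.56, was at 1.04 with oocyte 61 counted as SN. The number of genes past 2-fold between stages went from 2 to 1 in Nlrp5 +/+, from 1 to 0 in Nlrp5 +/- and from 1 to 0 in Nlrp5 -/- with a filter of 100, which removes Ehmt2. At that filter the shares of all genes were 5.02%, 2.95% and 5.4%. Leaving out 1 oocyte gave 1 to 2 in Nlrp5 +/+: without oocytes 79 or 80 Kdm1b fell under 2-fold, and without oocyte 87 Ehmt2, at -2.22, fell under the filter of 10. Without oocytes 7, 13 and 14 the Nlrp5 -/- stage count was 0, beside 15% of all genes. The median change between stages in Nlrp5 -/- (-0.01) was -0.26 with oocyte 15 as NSN, -0.31 without oocytes 7, 13 and 14, and -0.32 to 0.21 leaving out 1 oocyte. Nlrp5 -/- against Nlrp5 +/+ at NSN gave 1 in place of 0 genes (Ehmt2) with medians, pooled sums, oocyte 15 as NSN or no regard to stage. Those counts stood beside 8.63% to 13.7% of all genes. The comparison gave 1 without oocytes 13 and 14 (Kmt2b, beside 8.95%), and 0 to 1 leaving out 1 oocyte (Kmt2b without oocyte 14, Ehmt2 without oocytes 29, 30 or 87). At SN it gave 1 in place of 0 (Ehmt2) with no filter (12.6% of all genes) or no regard to stage (10.8%). Its median with Ehmt2 included (0.01) was 0.22 with no regard to stage, -0.21 without oocyte 7 and -0.21 to 0.28 leaving out 1 oocyte. Against Nlrp5 +/- the count was 1 in place of 0 at NSN with oocyte 15 as NSN (11.1% of all genes) or no regard to stage (8.01%). At SN it was 1 with no filter (11.9%) or no regard to stage (8.01%), and 0 to 1 leaving out 1 oocyte (Kdm5b without oocyte 31). Scaling by total count moved the median stage change of all genes in Nlrp5 +/+ from 0.03 to -0.08, and the signs that other scalings turned belonged to changes within 0.07 of 0. No paired analysis was possible because replicate numbers name oocytes and no test was made. Depth limits Ehmt2 most, with a median of 16 raw counts per oocyte.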
